A study of Arabidopsis thaliana with 12 samples.

Results

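Germin-like genes AT5G39100, AT5G39110, AT5G39120, AT5G39130, AT5G39150, AT5G39160, AT5G39180 and AT5G39190 lie in tandem on chromosome 5 of Arabidopsis thaliana, and these 8 genes of the 26925 listed per library were followed through 12 bulk RNA-seq libraries. The cluster was selected on the TPM of AT5G39150 and AT5G39180 in the 6 fruit libraries, which were lower in lhp1-6 than in Col-0. The values of that comparison are therefore given for all 8 genes as a description, with no test. Siliques were dissected into seeds and the fruit that remained, in wild-type Col-0 and in lhp1-6, a mutant allele of LHP1 (AT5G17690), which gave 4 groups of 3 libraries: Col-0 fruit, lhp1-6 fruit, Col-0 seed and lhp1-6 seed. Every plant was kept at 22 °C up to bolting and from then on at 16 °C in the day and 14 °C in the night, and siliques were opened 14 to 15 days after pollination, when embryos had bent cotyledons. A library came from 3 to 5 pooled siliques, and as the labels do not tie pools to plants, a p-value covers only the spread among these libraries, part of which may be technical. Expression is in TPM, a level scaled to transcript length and to a fixed total per library.

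Germin-like proteins are secreted glycoproteins of the cupin superfamily that sit in the plant cell wall. Germins of cereals oxidise oxalate to hydrogen peroxide, and some germin-like proteins of other plants have superoxide dismutase activity. Most enzymatic roles in Arabidopsis are less settled, and of the 8 genes the annotation names only AT5G39100 (GLP6) and AT5G39190 (GER2, also GLP2A). LHP1 is a chromodomain protein that binds the histone mark H3K27me3 and acts with Polycomb complexes, which keep many developmental genes repressed.

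In the TAIR10.1 annotation the 8 genes spanned 40611 bases, chr5:15653125-15693735, all on the minus strand and each with 2 exons. The deposited tables hold gene identifiers and no positions, so these gene models describe the genes and may differ from those behind the TPM. AT5G39100 occupied chr5:15653125-15654028, AT5G39110 chr5:15657697-15658632, AT5G39120 chr5:15662582-15663527 and AT5G39130 chr5:15665502-15666472. Farther along stood AT5G39150 at chr5:15669898-15670904, AT5G39160 at chr5:15679005-15680141, AT5G39180 at chr5:15683464-15684471 and AT5G39190 at chr5:15692542-15693735. A short myb-like gene model followed AT5G39130 (AT5G39140) and another followed AT5G39160 (AT5G39170). The starts of AT5G39140 and AT5G39170 lay 13558 bases apart, those of AT5G39150 and AT5G39180 13566 bases, and those of AT5G39160 and AT5G39190 13537 bases, so the right-hand genes form a repeated block with the same order.

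**Figure D1:**
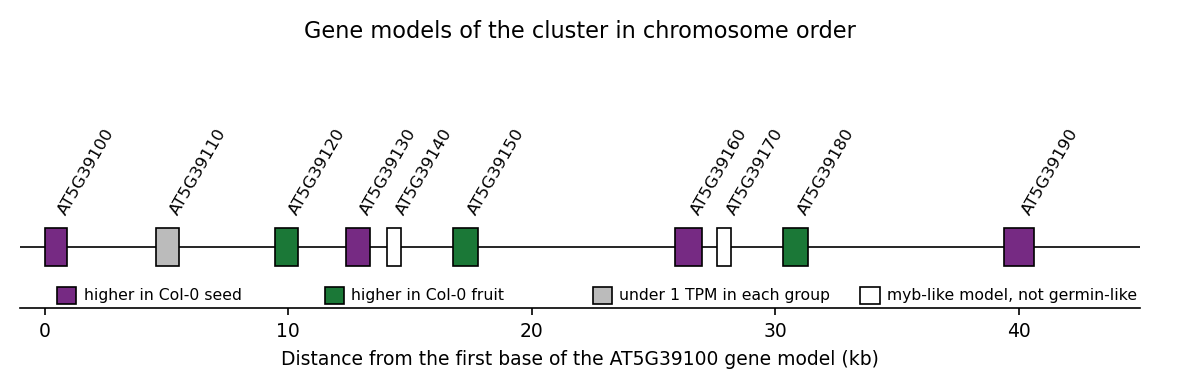
Gene models of the cluster drawn to scale along the chromosome, with distance in kb from the first base of AT5G39100 on the horizontal axis and colour for the tissue with the higher mean TPM in Col-0. Genes higher in seed (AT5G39100, AT5G39130, AT5G39160, AT5G39190) alternate with genes higher in fruit (AT5G39120, AT5G39150, AT5G39180), and AT5G39110 stayed under 1 TPM in each group.

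The coding sequences fell into 2 families. AT5G39130, AT5G39160 and AT5G39190 shared 97.6% to 99.9% of their bases with each other and 77.7% to 78.7% with the other 5 genes. Within those 5, AT5G39150 and AT5G39180 were 99.8% identical, AT5G39120 shared 98.0% of its bases with AT5G39150, AT5G39110 shared 95.1% and AT5G39100 89.7%. AT5G39150 and AT5G39180 differ by the single substitution C563T, and AT5G39160 and AT5G39190 by A196G, with positions counted from 1 at the A of the start codon and the base of the first-named gene first. Both substitutions change an amino acid, at codons 188 and 66. The coding length was 666 bases in AT5G39120, AT5G39150 and AT5G39180 and 669 bases in the other 5 genes.

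**Figure D2:**
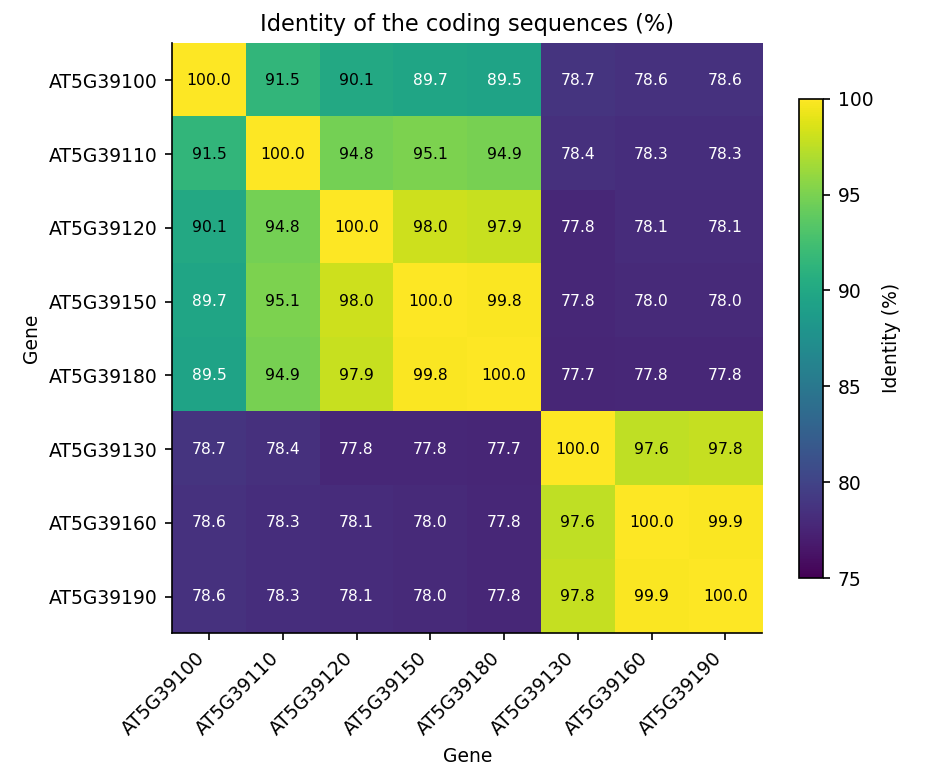
Identity of the coding sequences between each pair of genes, in percent, with genes of one family side by side. The block of AT5G39130, AT5G39160 and AT5G39190 lies at 97.6% to 99.9%, and its comparisons with the other 5 genes lie between 77.7% and 78.7%.

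The coding starts are shown because they let the families be compared base by base. Each line gives the first 100 coding bases from TAIR10.1, 5′ to 3′, with capitals at bases that differ from AT5G39190 in an alignment of the whole coding sequences. Gaps in that alignment are not marked.
AT5G39190: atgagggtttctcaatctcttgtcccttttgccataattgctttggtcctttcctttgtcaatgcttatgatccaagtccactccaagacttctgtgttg
AT5G39130: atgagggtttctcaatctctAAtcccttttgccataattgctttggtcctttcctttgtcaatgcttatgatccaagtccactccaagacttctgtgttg
AT5G39100: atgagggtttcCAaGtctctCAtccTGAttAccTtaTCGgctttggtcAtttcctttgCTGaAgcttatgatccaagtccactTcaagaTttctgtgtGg
AT5G39120: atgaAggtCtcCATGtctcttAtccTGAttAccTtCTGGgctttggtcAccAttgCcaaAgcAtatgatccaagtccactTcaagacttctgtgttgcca
AT5G39150: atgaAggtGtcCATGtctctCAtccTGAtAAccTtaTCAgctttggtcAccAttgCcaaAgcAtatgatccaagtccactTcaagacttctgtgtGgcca
AT5G39160 had 0 differences from AT5G39190 over these bases and AT5G39130 had 2, against 21 in AT5G39100, 22 in AT5G39120 and 24 in AT5G39150. AT5G39180 is not printed, since its 100 bases are those of AT5G39150.

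The near identity bears on what a TPM of one gene can mean. Of all 100-base windows inside the exons of AT5G39150, 26.8% occurred once in the genome, and the share was 26.7% in AT5G39180, 32.2% in AT5G39160 and 30.1% in AT5G39190. It was 100% in AT5G39100, 91.5% in AT5G39110, 85.1% in AT5G39130 and 76.3% in AT5G39120. Reads were 100-base pairs, and how reads with several positions were counted is not given in the sources used here. Values of AT5G39150 and AT5G39180, and those of AT5G39160 and AT5G39190, are therefore uncertain singly and are also given as sums. The sums, and shares or ranks built on these genes, still depend on how shared reads were counted.

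Upstream windows of 250 bases are shown for AT5G39120, one of the genes with a higher level in fruit than in seed, and for AT5G39190, the most abundant gene. They end at the base before the annotated start of the gene in TAIR10.1 and run 5′ to 3′ on the minus strand, with capitals at CCACGT, the reverse complement of ACGTGG, the core of the abscisic acid response element (ABRE).
AT5G39120, chr5:15663528-15663777, minus strand: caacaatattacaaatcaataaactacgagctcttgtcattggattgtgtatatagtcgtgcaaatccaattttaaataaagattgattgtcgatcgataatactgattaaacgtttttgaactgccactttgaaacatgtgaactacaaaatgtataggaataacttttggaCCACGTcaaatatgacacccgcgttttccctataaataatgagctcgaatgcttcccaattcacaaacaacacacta
AT5G39190, chr5:15693736-15693985, minus strand: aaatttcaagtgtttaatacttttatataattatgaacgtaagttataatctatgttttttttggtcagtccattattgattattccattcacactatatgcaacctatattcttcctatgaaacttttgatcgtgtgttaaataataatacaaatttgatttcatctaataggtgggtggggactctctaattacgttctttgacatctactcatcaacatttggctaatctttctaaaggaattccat
The windows of AT5G39160 and AT5G39190 shared 99.1% over 232 bases. The ABRE core, searched on both strands, was found in 3 of the 6 windows compared, which leave out AT5G39150 and AT5G39180, against 8.23% of all 27438 windows of that length. It lay 64 to 59 bases before the start of AT5G39100, 78 to 73 before AT5G39110 and 77 to 72 before AT5G39120. Windows of tandem copies share descent and are not independent. Annotated starts are also shifted between copies. The AT5G39130 window overlapped that of AT5G39160 over only 140 bases and that of AT5G39190 over 122. The windows thus cover different stretches, and a motif not found in a window may lie outside it. The telobox AAACCCTA was in 4.49% of all windows, GAGAGAGA in 4.91%, the G-box CACGTG in 6.49% and the W-box TTGACC in 12.2%, and these letters were in 0 of the 6 windows.

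LHP1 itself stood between 15.3 and 23.7 TPM in the Col-0 libraries and between 0.310 and 0.858 TPM in the lhp1-6 libraries. All 10 seed storage genes were higher in seed than in fruit in Col-0 (limma, adjusted p under 0.05). All 5 vasculature and all 4 guard cell markers were lower, as were 4 of 6 valve, margin and replum markers, with 1 higher. Of all genes tested, 45.3% were called higher in seed and 37.7% lower. In all 3 Col-0 seed libraries, 3 vasculature, 3 guard cell and 2 valve, margin and replum markers were under 1 TPM. Such genes pass the filter mainly through fruit, so the lower calls are given as a description. Of 26925 genes listed, 19946 had at least 1 TPM in at least 3 libraries and were tested, and 7 of the 8 cluster genes passed. AT5G39120 passed through 5 fruit libraries. AT5G39110 did not pass.

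The 3 closely related genes AT5G39130, AT5G39160 and AT5G39190 were among the most abundant transcripts of the seed and made up nearly the whole output of the cluster. Their summed TPM was 15104 ± 419 in Col-0 seed, 12045 ± 537 in lhp1-6 seed, 2545 ± 1789 in fruit of Col-0 and 2156 ± 160 in fruit of lhp1-6 (mean ± SD, n = 3 libraries per group). The summed TPM of all 8 genes was 15123 ± 420, 12063 ± 536, 2731 ± 1770 and 2182 ± 158 in the same order. By share of the listed TPM this was 1.51% to 1.59% in Col-0 seed, 1.18% to 1.28% in lhp1-6 seed, 0.163% to 0.487% in fruit of Col-0 and 0.205% to 0.238% in fruit of lhp1-6. Among 32 germin-like genes of the genome the 8 held 98.3% to 98.9% of the TPM in seed and 75.6% to 90.3% in fruit.

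AT5G39190 (GER2) was at 5790, 5863 and 6029 TPM in Col-0 seed replicates 1 to 3 and at 4838, 4534 and 5028 TPM in lhp1-6 seed. In fruit it was at 1823, 590 and 640 TPM in Col-0 and at 938, 873 and 800 TPM in lhp1-6. All 6 seed libraries were above all 6 fruit libraries, and Col-0 fruit replicate 1 was the highest fruit library. In rank, AT5G39190 was gene 6, 7 and 6 of its library in the Col-0 seeds and 14, 10 and 14 in the lhp1-6 seeds.

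AT5G39160, its near copy, was at 5671, 5746 and 5916 TPM in Col-0 seed, 4724, 4472 and 4981 TPM in lhp1-6 seed, 1795, 576 and 629 TPM in the fruits of Col-0 and 919, 846 and 796 TPM in those of lhp1-6. Its TPM was 0.970 to 0.995 of that of AT5G39190 in each of the 12 libraries. Together the pair stood at 11672 ± 248 TPM in Col-0 seed and 9525 ± 503 TPM in lhp1-6 seed. AT5G39130 was at 3402, 3250 and 3642 TPM in Col-0 seed, 2448, 2522 and 2591 TPM in lhp1-6 seed, 990, 271 and 319 TPM in the fruits of Col-0 and 440, 471 and 387 TPM in those of lhp1-6. It followed the same order of groups as AT5G39160 and AT5G39190 at 0.459 to 0.604 of the AT5G39190 level. For each of these 3 genes the 4 groups ran Col-0 seed, lhp1-6 seed, then the fruit groups, and of neighbours in that order only the fruit groups overlapped.

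**Figure D3:**
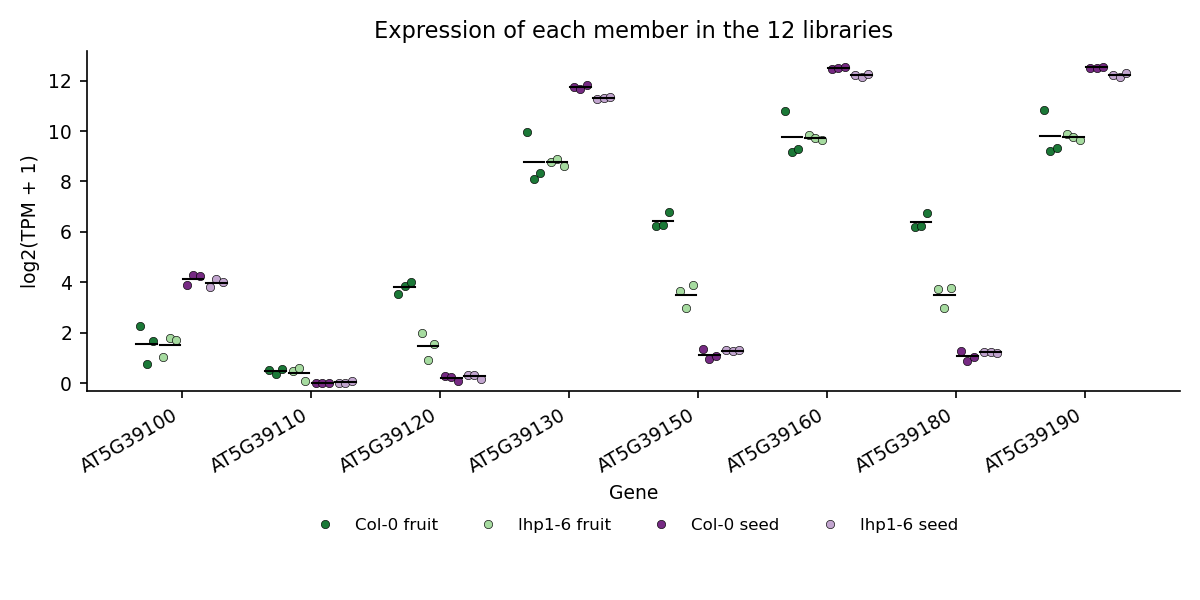
Level of each cluster gene as log2(TPM + 1) in the 12 libraries, with a point per library, a bar at the group mean and colour for the 4 groups. AT5G39130, AT5G39160 and AT5G39190 lie at 3250 TPM or more in the Col-0 seeds, while AT5G39120, AT5G39150 and AT5G39180 are high in Col-0 fruit, lower in lhp1-6 fruit and under 2 TPM in seed.

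AT5G39100 (GLP6), of the other family by sequence, had a seed-high pattern at a far lower level. It was at 13.9, 18.8 and 17.9 TPM in Col-0 seed and at 12.9, 16.7 and 15.3 TPM in lhp1-6 seed. In fruit it was at 3.79, 0.673 and 2.22 TPM in Col-0 and at 1.03, 2.45 and 2.27 TPM in lhp1-6. The seed libraries did not overlap the fruit libraries, and the genotypes overlapped within each tissue. AT5G39110 reached at most 0.496 TPM in a fruit library and 0.0631 TPM in a seed library, and was listed at 0 in 5 libraries.

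AT5G39120, AT5G39150 and AT5G39180 had the opposite tissue pattern. AT5G39150 was at 74.8, 75.5 and 110 TPM in Col-0 fruit, at 11.6, 6.79 and 13.7 TPM in lhp1-6 fruit, at 1.55, 0.918 and 1.11 TPM in Col-0 seed and at 1.48, 1.39 and 1.46 TPM in lhp1-6 seed. AT5G39180 was at 72.2, 73.7 and 105 TPM, 12.1, 6.85 and 12.8 TPM, 1.42, 0.856 and 1.05 TPM, and 1.36, 1.33 and 1.28 TPM in the same groups. Both were highest in Col-0 fruit and next in lhp1-6 fruit, with no overlap, and the seed groups overlapped. The AT5G39150 level was 0.960 to 1.14 of the AT5G39180 level over the 12 libraries. AT5G39120, more of whose exon windows occur once in the genome, was at 10.7, 13.5 and 15.3 TPM in the fruits of Col-0 and at 2.93, 0.911 and 1.93 TPM in those of lhp1-6. Its 6 seed libraries lay between 0.0663 and 0.260 TPM, below every fruit library.

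In lhp1-6 fruit, the comparison that chose the cluster, these 3 genes were low and the 3 abundant genes lay within their spread Col-0 range. AT5G39150 went from 86.9 ± 20.4 to 10.7 ± 3.54 TPM, 8.12-fold lower, a difference of -2.93 in log2(TPM + 1), the scale of all differences given here, lhp1-6 less Col-0 or seed less fruit, which compresses those of low genes. AT5G39180 went from 83.7 ± 18.6 to 10.6 ± 3.24 TPM, 7.92-fold lower (-2.89), and their sum from 171 ± 38.9 to 21.3 ± 6.75 TPM. AT5G39120 went from 13.2 ± 2.31 to 1.92 ± 1.01 TPM, 6.84-fold lower (-2.32). Summed over AT5G39120, AT5G39150 and AT5G39180 the level was 184 ± 40.9 TPM in Col-0 and 23.2 ± 7.53 TPM in lhp1-6, 7.92-fold lower, with libraries at 158, 163 and 231 against 26.7, 14.6 and 28.4 TPM. These were the 3 of 8 genes with all 3 lhp1-6 libraries below all 3 Col-0 libraries, which 15.6% of the genes tested had. Nothing is read from that count, because the choice used these libraries.

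The other genes differed little in mean log2(TPM + 1) in fruit, but their Col-0 libraries were spread. On that scale the differences were -0.03 for AT5G39130, -0.02 for AT5G39160, -0.02 for AT5G39190, -0.06 for AT5G39100 and -0.09 for AT5G39110. The genotypes overlapped for each. In mean TPM, AT5G39130 differed by -17.9%, AT5G39160 by -14.7% and AT5G39190 by -14.5%, with Col-0 fruit replicate 1 above every other fruit library. The summed TPM of the 8 genes differed by -0.14 and overlapped, and without Col-0 fruit replicate 1 it differed by 0.35, so that library decides its sign. AT5G39120, AT5G39150 and AT5G39180 were a small part of the summed TPM in both genotypes.

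**Figure D4:**
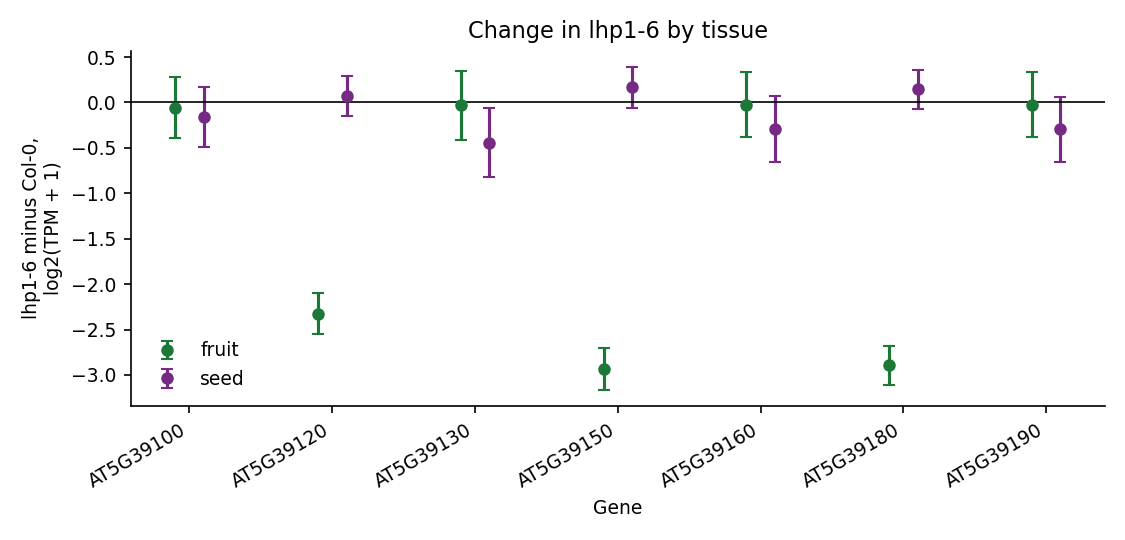
Difference of lhp1-6 less Col-0 in log2(TPM + 1) for the 7 genes that passed the filter, in fruit and in seed, with points at the difference and bars of 1 standard error from the limma fit. In fruit AT5G39120, AT5G39150 and AT5G39180 lie between -2.93 and -2.32 and the other 4 genes between -0.06 and -0.02. The fruit bars are no test, because the cluster was chosen on the fruit libraries. In seed the 7 genes lie between -0.44 and 0.17.

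The seed libraries were not used to choose the genes, and there no cluster gene passed the test between genotypes. Of 7 genes tested with limma, 0 were higher and 0 lower at an adjusted p under 0.05, and 0 had an unadjusted p under 0.05. Of all genes tested, 1.85% were called higher and 10.2% lower, and 0 of 7 cannot be told apart from these shares. AT5G39120, at most 0.260 TPM in seed, passed the filter only through fruit, so its seed test could hardly give a call. AT5G39130 had the largest difference of the 7, from 3432 ± 198 to 2520 ± 71.4 TPM, a change of -26.6% (-0.44, SE 0.38, adjusted p = 0.463). AT5G39190 went from 5894 ± 123 to 4800 ± 249 TPM, a change of -18.6% (-0.30, SE 0.36, adjusted p = 0.615), and AT5G39160 from 5778 ± 126 to 4725 ± 255 TPM, a change of -18.2% (-0.29, SE 0.36, adjusted p = 0.624). For these 3 genes all 3 lhp1-6 seeds lay below all 3 Col-0 seeds. In seed 41.5% of all genes tested did so, and the median difference over all genes was -0.15, so lower values in lhp1-6 seed were common.

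The AT5G39130 call depended on which libraries gave the error. With the 6 seed libraries alone its adjusted p was 0.0273 (SE 0.12), and without Col-0 fruit replicate 1, an alternative added after seeing the data, it was 0.0247 (SE 0.12). AT5G39160 and AT5G39190 did not pass the test in either fit, with adjusted p of 0.15 and 0.145 with the seed libraries alone and 0.130 and 0.128 without that fruit library. When libraries were rescaled so that the median over all genes was 0.00, the differences were -0.27 for AT5G39130, -0.12 for AT5G39160 and -0.12 for AT5G39190, with 0 called. Quantile normalisation, which also brought that median to 0.00437, moved them the other way, to -0.70, -0.80 and -0.90, again with 0 called. The summed TPM of the 8 genes differed by -0.33 as deposited, by -0.15 after the rescaling and by -0.81 after quantile normalisation.

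The other 4 genes tested in seed overlapped between genotypes. AT5G39100 differed by -11.2% in mean TPM (-0.16, SE 0.33, adjusted p = 0.793), and its log2 difference became 0.00597 after rescaling. AT5G39150 differed by 20.9% (0.17, SE 0.23, adjusted p = 0.664) and AT5G39180 by 19.2% (0.15, SE 0.21, adjusted p = 0.684), with lhp1-6 higher. AT5G39120 differed by 38.0% (0.07), also with lhp1-6 higher. Its adjusted p is left out, because AT5G39120 passed the filter only through fruit. These 3 stood near the floor of the scale, where the added 1 TPM makes log2 differences small. The lower level of AT5G39120, AT5G39150 and AT5G39180 seen in lhp1-6 fruit was thus not detected in seed, where they were at 2.45 ± 0.629 TPM in sum in Col-0 and 2.97 ± 0.113 TPM in lhp1-6. Whether the genotype difference itself differs between tissues was not tested, because the fruit side of it chose the genes. In whole tissues, fewer cells of a type and less RNA per cell cannot be told apart.

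Between tissues of Col-0, the 4 genes with a test were higher in seed, where 45.3% of all genes tested were called higher and 37.7% lower. AT5G39130 was 6.51-fold higher in seed (2.96, SE 0.38, adjusted p = 2.61e-05), AT5G39160 5.78-fold (2.74, adjusted p = 3.07e-05) and AT5G39190 5.79-fold (2.74, adjusted p = 3.02e-05). AT5G39100 was 7.57-fold higher (2.59, SE 0.33, adjusted p = 2.66e-05). Col-0 fruit replicate 1 lowers these folds, and without it they were 11.6-fold for AT5G39130, 9.59-fold for AT5G39160, 9.58-fold for AT5G39190 and 11.7-fold for AT5G39100. AT5G39120 was 85.3-fold lower in seed, at 0.154 ± 0.0761 against 13.2 ± 2.31 TPM (-3.60), given with no test because it passed the filter only through fruit libraries. AT5G39150 was 72.9-fold lower in seed (-5.31) and AT5G39180 75.5-fold lower (-5.31), also with no test because their Col-0 fruit values served to choose them. The median difference over all genes was 0.12.

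In lhp1-6 the same 4 genes were higher in seed, beside 39.3% of all genes tested called higher and 41.1% lower. AT5G39130 was 5.82-fold higher (2.54, adjusted p = 9.15e-05), AT5G39160 5.54-fold (2.47, adjusted p = 7.66e-05), AT5G39190 5.52-fold (2.46, adjusted p = 7.68e-05) and AT5G39100 7.81-fold (2.48, adjusted p = 4.17e-05). AT5G39120 was 9.03-fold lower in seed (-1.21), AT5G39150 7.43-fold lower (-2.21) and AT5G39180 7.999-fold lower (-2.27), with no test.

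Relative to mean seed TPM, the 3 abundant seed-high genes and several seed markers were highest in the same fruit library. In TPM alone, the storage genes summed to 6951 to 10572 in the lhp1-6 fruits and at most 3077 in those of Col-0. As a percent of the mean seed TPM of the genotype, the summed fruit TPM of AT5G39130, AT5G39160 and AT5G39190 was 30.5%, 9.52% and 10.5% in Col-0 replicates 1 to 3 and 19.1%, 18.2% and 16.5% in lhp1-6. The 10 storage genes, expressed in the embryo, gave 26.2%, 4.13% and 2.66%, and 12.9%, 8.50% and 9.95%. The oleosin OLEO2 gave 24.5%, 4.18% and 4.17%, and 9.68%, 9.996% and 9.10%. BAN, an anthocyanidin reductase of the inner seed coat, gave 30.6%, 3.05% and 7.75%, and 25.4%, 22.0% and 18.1%. These 4 percents were highest in Col-0 fruit replicate 1, and those of the other Col-0 fruits lay below those of the 3 lhp1-6 fruits. The percents of the summed 3 seed coat genes had the same order of libraries in these respects (34.7%, 8.73% and 12.1%, and 29.5%, 32.1% and 25.1%). But for 1 of them, MUM4, a rhamnose synthase of seed coat mucilage, the percent was highest in lhp1-6 fruit replicate 2 (46.4%, 24.9% and 24.3%, and 38.9%, 54.8% and 40.8%). AT5G39100 was highest in Col-0 fruit replicate 1, with the genotypes otherwise mixed (22.5%, 3.99% and 13.2%, and 6.87%, 16.4% and 15.2%).

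**Figure D5:**
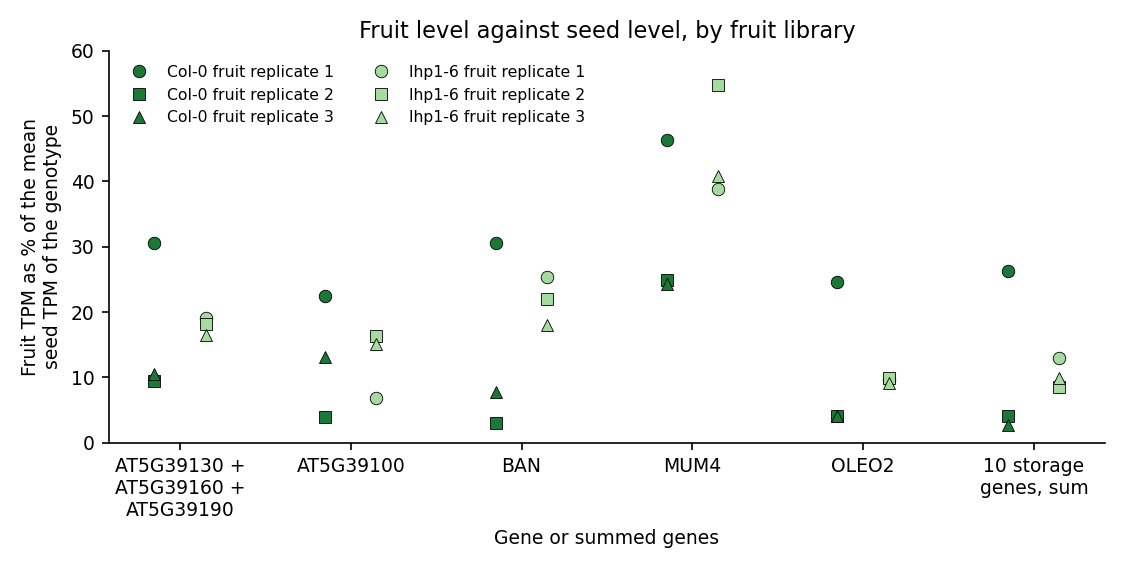
Fruit TPM as a percent of the mean seed TPM of the same genotype, for the summed 3 abundant genes, AT5G39100, the seed coat genes BAN and MUM4, the oleosin OLEO2 and the sum of 10 storage genes, with a symbol per fruit library. Col-0 fruit replicate 1 stands at 30.5% for the abundant genes against 9.52% and 10.5% in the other Col-0 fruits and 16.5% to 19.1% in the lhp1-6 fruits.

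The summed storage list ranged from 312 to 3077 TPM in the fruits of Col-0 and from 6951 to 10572 TPM in those of lhp1-6, with 0 of 10 genes at 0, and from 7771 to 14201 TPM in Col-0 seed and 39833 to 110703 TPM in lhp1-6 seed. The 3 seed coat genes summed to 96.9 to 385 TPM in the fruits of Col-0, 142 to 181 TPM in those of lhp1-6, 1004 to 1240 TPM in Col-0 seed and 532 to 616 TPM in lhp1-6 seed. Their part in the fruit level of the seed-high genes was not tested. AT5G39120, AT5G39150 and AT5G39180 were at 1.97 to 3.16 TPM in sum in the Col-0 seeds. The 6 valve, margin and replum genes summed to 633 to 856 TPM in the fruits of Col-0 and 760 to 811 TPM in those of lhp1-6, the 5 vasculature genes to 822 to 1091 and 764 to 917 TPM, and the 4 guard cell genes to 52.9 to 88.3 and 66.7 to 106 TPM, with 0 genes of these lists at 0 in fruit. The ranges of these sums overlapped between genotypes, but a sum mostly follows its most abundant genes. In Col-0 fruit the vasculature gene SUC2 averaged 615 TPM. In the valve, margin and replum list, ALC and FUL averaged 284 and 245 TPM there. Single genes differed in both directions. In lhp1-6 fruit the valve gene FUL (-0.61, adjusted p = 0.0241) and the cellulose synthase gene IRX3 (-0.82, adjusted p = 0.0269) were lower. The valve margin gene SHP1 (0.60, adjusted p = 0.00329) and the xylem protease gene XCP1 (0.92, adjusted p = 0.00139) were higher. In Col-0, SHP1 averaged 36.3 TPM in fruit and 32.5 TPM in seed, and SHP2 91.0 and 254 TPM, so neither marks fruit alone. The other 11 of these 15 genes did not pass the test, and the part of these tissues in the cluster's difference was not tested.

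Of 24 germin-like genes outside the cluster, 11 were tested, and 4 of the others were at 0 in all 12 libraries. In Col-0, 2 of the 11 were higher in seed and 8 lower, beside 45.3% and 37.7% of all genes tested. In lhp1-6 2 were higher and 7 lower, beside 39.3% and 41.1%. Nothing is read from these counts, because 2 of the 11, AT1G18980 and GLP9, reached 1 TPM in no seed library and so passed the filter through fruit. GLP10 was at 207 ± 14.9 TPM in fruit of Col-0 and 1.01 ± 0.238 TPM in Col-0 seed (-6.70, adjusted p = 9.26e-11), and AT1G02335 at 24.1 ± 3.93 and 0.905 ± 0.159 TPM (-3.71, adjusted p = 9.93e-10). AT3G04200 was the more abundant of those higher in seed, at 107 ± 22.9 against 19.0 ± 14.7 TPM (2.64, adjusted p = 8.93e-05), and AT5G38960 was at 5.75 ± 2.85 against 1.36 ± 0.122 TPM (1.42, adjusted p = 0.0068). GER3 reached at most 0.219 TPM, and GER1 stood at 57.5 ± 28.4 TPM in the fruits of Col-0 and 30.8 ± 6.93 TPM in its seeds (-0.77, adjusted p = 0.0711).

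Between genotypes 2 of those 11 genes passed the test in fruit and 4 in seed. In fruit AT1G18980 was higher in lhp1-6 (0.47, adjusted p = 0.0424) and AT3G10080 was lower (-0.75, adjusted p = 0.0134), beside 5.75% of all genes tested called higher and 9.19% called lower. GLP10, the most abundant of them in fruit, was at 207 ± 14.9 TPM in Col-0 and 207 ± 39.1 TPM in lhp1-6. In seed AT1G02335 was higher (0.80, adjusted p = 0.00531), and AT5G26700 (-1.57, adjusted p = 0.0056), GLP8 (-1.28, adjusted p = 0.0448) and GLP5 (-0.45, adjusted p = 0.048) were lower, beside 1.85% of all genes tested called higher and 10.2% called lower.

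Enzymes that make or remove superoxide and hydrogen peroxide, the molecules of the oxidase and dismutase activities described for germins and germin-like proteins, were read as a pathway list of 16 genes, of which 15 were tested. In lhp1-6 fruit 2 were higher, the copper/zinc superoxide dismutases CSD2 (1.9, adjusted p = 0.00857) and CSD1 (1.04, adjusted p = 0.02), and 3 lower, the catalase CAT2 (-0.59, adjusted p = 0.00729) and the NADPH oxidases RBOHD (-1.34, adjusted p = 0.0298) and RBOHF (-0.59, adjusted p = 0.0303), where 5.75% of all genes tested were called higher and 9.19% lower. In lhp1-6 seed 2 were higher, MSD2 (1.12, adjusted p = 0.00645) and CAT3 (0.82, adjusted p = 0.0166), and 0 lower, where 1.85% of all genes tested were called higher and 10.2% lower. The median difference was 0.11 beside -0.15 over all genes. Between tissues of Col-0 6 were higher in seed and 8 lower, beside 45.3% and 37.7% of all genes tested. In lhp1-6 5 were higher and 7 lower, beside 39.3% and 41.1%. These tissue counts are a description only. PRX34 was at most 0.409 TPM in a seed library and MSD2 at most 0.314 TPM in a fruit library, so each passed the filter through 1 tissue. CAT3 was the lowest in seed relative to fruit among the catalases, at 58.3 ± 7.00 TPM in Col-0 seed and 2258 ± 517 TPM in Col-0 fruit.

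The genes beside the cluster are few, and their calls are given as a description. In fruit, of the flanking genes, AT5G39030 (-0.78, adjusted p = 0.024), annotated as a protein kinase, and AT5G39090 (-0.63, adjusted p = 0.021), annotated as an acyltransferase, were lower in lhp1-6. AT5G39220, an alpha/beta-hydrolase on the other side, was higher, at 130 ± 19.2 TPM in Col-0 and 284 ± 66.9 TPM in lhp1-6 (1.10, adjusted p = 0.000934). Of all genes tested in fruit, 5.75% were called higher and 9.19% lower. The transporter gene ABCB27 (-0.10, adjusted p = 0.393), the acyltransferase gene PMAT1 (-0.43, adjusted p = 0.0797) and CRR7 (0.17, adjusted p = 0.351) did not pass the test. In seed AT5G39090 (-0.84, adjusted p = 0.00864) was lower, beside 1.85% of all genes tested called higher and 10.2% lower. AT5G39230 averaged 1.98 TPM in Col-0 seed and under 1 TPM in each other group (-1.03 between the seed groups). It passed the filter through Col-0 seed, which favours a lower call, so its test is not read. The myb-like models inside the cluster averaged at most 0.353 TPM in a group, in the case of AT5G39170 in Col-0 seed, and were not tested.

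The genes most like the summed cluster were found by the root mean square difference of centred log2(TPM + 1) profiles, over 17161 genes tested with a mean of at least 5 TPM in a group. Over the 12 libraries they were NF-YC2, a subunit of a CCAAT-binding factor (0.103), KT5, a potassium channel (0.111), AT3G04300 (0.120), SERK1, a receptor kinase (0.129), LPR1, a ferroxidase of phosphate-starved roots (0.131), and GAMT1, a gibberellin methyltransferase (0.135). NF-YC2 averaged 740 TPM in Col-0 seed, 630 TPM in lhp1-6 seed, 131 TPM in fruit of Col-0 and 113 TPM in fruit of lhp1-6. Over the 6 fruit libraries alone the nearest were HSL2 (0.0796), CSY1 (0.0803), GAMT1 (0.0803), AT2G16270 (0.101), AT2G45840 (0.105) and TET4 (0.107). For the sum of AT5G39120, AT5G39150 and AT5G39180, a profile added after its values were seen, the nearest over 12 libraries were WSD1, a wax ester synthase (0.375), AT5G06570 (0.416), HPL1, a hydroperoxide lyase (0.491), SIS (0.514), LCR7 (0.526) and AT2G17500 (0.533). The differences are in log2 units and describe these libraries, whose genes share library and scaling.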

How the data were processed

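Bulk RNA-seq was read from 12 libraries in 4 groups of 3. The values the authors deposited are TPM per gene, per the labels, with 1 table per library. Per the submitters' processing notes, cutadapt 1.9.1, STAR 2.5, featureCounts and TAIR10 were used. Strandedness and the treatment of reads with several positions are not given in the sources used here. TPM keep no depth, so depth is unknown, and no counting intervals were made. Listed TPM summed to 977751 to 986706 per library, with 17620 to 19086 genes at 1 TPM or more.

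Tests used limma 3.58.1 (R 4.3.3). TPM were put on a log2 scale after adding 1, and the 19946 genes that reached 1 TPM in 3 or more libraries were fitted together. The fit had 1 mean per group over all 12 libraries and variances moderated along a mean trend, and p-values were Benjamini-Hochberg adjusted, with a threshold of 0.05. The steps were tested on simulated data. The genes, lists and rules were chosen with earlier results of these data known. Sums got no test, nor did cluster genes in fruit between genotypes, nor AT5G39120, AT5G39150 and AT5G39180 between tissues. A test of AT5G39120 between tissues had been planned and was dropped because the filter admits it only through fruit. Named were LHP1, the 8 genes, the GER and GLP genes, other list genes past the threshold by smallest adjusted p, the 5 genes on each side and the nearest profiles, and a part of these is given. Gene models and sequences came from RefSeq's TAIR10.1, whose windows were cut 250 bases before each annotated start. The upstream windows of AT5G39150 and AT5G39180 are not reported here.

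Whether replicate numbers pair the tissues was checked by correlating, across genes, how a fruit and a seed library of one number departed from their group means. The values were 0.192, 0.113 and 0.185 for Col-0 and 0.311, 0.202 and 0.128 for lhp1-6, so numbers were taken as possibly pairing tissues within a genotype. These values are weak, and seed replicate 1 reached 0.421 across genotypes. The tissue tests given above leave the pairing out, and a replicate block was run as an alternative. The alternatives were quantile normalisation, median-of-ratios rescaling, adding 0.1 or 5 TPM in place of 1, a 5 TPM filter, no filter, the 6 libraries alone, no mean trend, the replicate block, the cluster as 1 summed feature, and each library left out. TPM without the 10 storage genes and the seed comparison and the Col-0 tissue folds without Col-0 fruit replicate 1 were added after seeing the data.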

Additional observations from a re-analysis of the deposited data

How the results depend on the processing

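The tissue directions and calls of the 4 genes with a test held under every alternative run. Without a filter 1 gene was lower in seed in each genotype, AT5G39110, which is near 0. The summed TPM in lhp1-6 (2.47, seed minus fruit) was 2.18 after quantile normalisation and 2.58 without the storage genes.

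In seed between genotypes, 2410 genes were called as deposited, 989 after median-of-ratios rescaling, 1069 after quantile normalisation, 1179 without the storage genes, 5650 with the 6 libraries alone, and 636 to 4162 with a library left out, the highest without Col-0 fruit replicate 1. Cluster genes lower numbered 1 (AT5G39130) with the 6 libraries alone, and 0 to 1 with a library left out, the 1 being without Col-0 fruit replicate 1. The summed TPM (-0.33) was -0.15, -0.81 and -0.22 under the rescaling, quantile normalisation and the TPM without storage genes. AT5G39100 (-0.16) turned to 0.00597 and 0.00766 under the first 2 of these. The cause of these shifts was not tested. In fruit 2980 genes were called, 885 with the 6 libraries alone and 1771 to 5641 with a library left out, the highest again without Col-0 fruit replicate 1.

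With the replicate block 16456 genes were called between tissues in Col-0 and 15904 in lhp1-6, against 16558 and 16038, and the block changed no call of a cluster gene. Between Col-0 and lhp1-6 libraries of one number the correlations were mixed in sign (-0.246, -0.397 and 0.0604 in fruit and 0.421, -0.0293 and 0.125 in seed). A block across genotypes gave 1942 genes in seed and 2752 in fruit. Unknown depth and near-identical copies limit the low values and the single genes of each pair, and the unknown counting of shared reads also limits the sums.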
